A study of Mus musculus with 6 samples.

Results

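This report describes 9 genes of retinoic acid binding, synthesis, breakdown and reception in mouse embryonic fibroblasts (MEFs) that overexpress Fbxl10, among 19936 genes measured. The 9 are Crabp1, Crabp2, Rara, Rarb, Rarg, Stra6, Cyp26b1, Dhrs3 and Aldh1a2, which were chosen by pathway after the array values of this series had shown a large fall of Crabp2. A single probe set represents each gene. The HA-Fbxl10 group held 3 RNA samples of a Tet-off MEF line that had received an HA-Fbxl10 cDNA plasmid together with a hygromycin resistance plasmid, with clones picked for expression of the tagged protein. Control cells, also with 3 RNA samples, were of that Tet-off line without any transfection. In a Tet-off line a tetracycline-controlled transactivator drives transgenes. No cells with an empty vector or with the resistance plasmid alone are among the samples, so transfection, clone selection and Fbxl10 itself cannot be told apart as sources of a difference. Whether the independent samples of a group stem from different clones or cultures is not given, so errors and p-values cover the spread among these RNA samples alone, which may be technical.

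Retinol, the alcohol form of vitamin A, enters cells from its plasma carrier through the membrane receptor STRA6. Dehydrogenases such as RDH10 oxidise it to retinaldehyde, DHRS3 reduces retinaldehyde back to retinol, and ALDH1A2 oxidises retinaldehyde to retinoic acid. CRABP2 carries retinoic acid to its nuclear receptors, CRABP1 holds it in the cytoplasm, and CYP26 enzymes such as CYP26B1 degrade it. The receptors RARα, RARβ and RARγ bind DNA as dimers with RXR proteins at paired half-sites, and retinoic acid is a patterning signal of the embryo, in limb and other mesenchyme among other tissues. The product of Fbxl10, listed here under its present symbol Kdm2b, is a histone demethylase that also recruits a Polycomb complex to unmethylated CpG islands.

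Kdm2b had log2 levels of 9.77, 9.75 and 9.58 in the HA-Fbxl10 samples, against 7.38, 7.45 and 7.28 in the control samples. It was 5.03-fold higher in HA-Fbxl10 cells (limma adjusted p = 3.31e-07). Pearson correlations over all genes lay between 0.997 and 0.998 for arrays of the same group and between 0.991 and 0.993 for arrays of different groups. Precision is limited by the number of arrays. Of 12 fibroblast markers, 10 lay above the median gene level of 5.36, among them Col1a1, Col1a2 and Vim, while Thy1 and Fap lay below it. The fibroblast list's mean log2 level was 9.66 to 9.74 in HA-Fbxl10 samples and 9.83 to 9.86 in control samples. Of its members 3 fell, Col3a1 (-0.79), S100a4 (-0.64) and Pdgfra (-0.30), and 0 rose. In the macrophage, epithelial and skeletal muscle lists, with 8 measured markers each, 0 rose and 1, Cd14, fell. Of 8 endothelial markers 2 rose, Flt1 (1.62) and Kdr (0.51), and 0 fell, while 5 of the 8 had differences below 0. The endothelial list means were 4.40 to 4.46 in HA-Fbxl10 samples and 4.17 to 4.25 in control samples. Of 7 neural markers 3 fell, Stmn2 (-0.70), Tubb3 (-0.58) and Map2 (-0.35), and 0 rose. The neural list means were 5.37 to 5.49 in HA-Fbxl10 samples and 5.58 to 5.71 in control samples. For comparison, 21.1% of all genes and 37% of those above the median level passed the threshold, a limma adjusted p of 0.05 over all genes. The part of these markers in the results below was not tested.

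Of the 9 genes, Crabp2 and Dhrs3 were lower in HA-Fbxl10 cells past the threshold of the fit over all genes, and the other 7 did not pass it. Beside this, 21.1% of all genes passed, and 10.6% passed as lower. The groups did not overlap for 3 of the 9 genes, Crabp2, Dhrs3 and Rara, against 36% of all genes. Because this same contrast led to the choice of the genes, nothing is read from these counts, and the differences of the 9 genes are given as a description, with their errors and without p-values. Their differences ran from -2.93 to 0.20 on the log2 scale with a median of -0.08, beside a median of -0.004 over all genes. Apart from Crabp2 and Dhrs3, no member differed by more than 0.24.

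**Figure D1:**
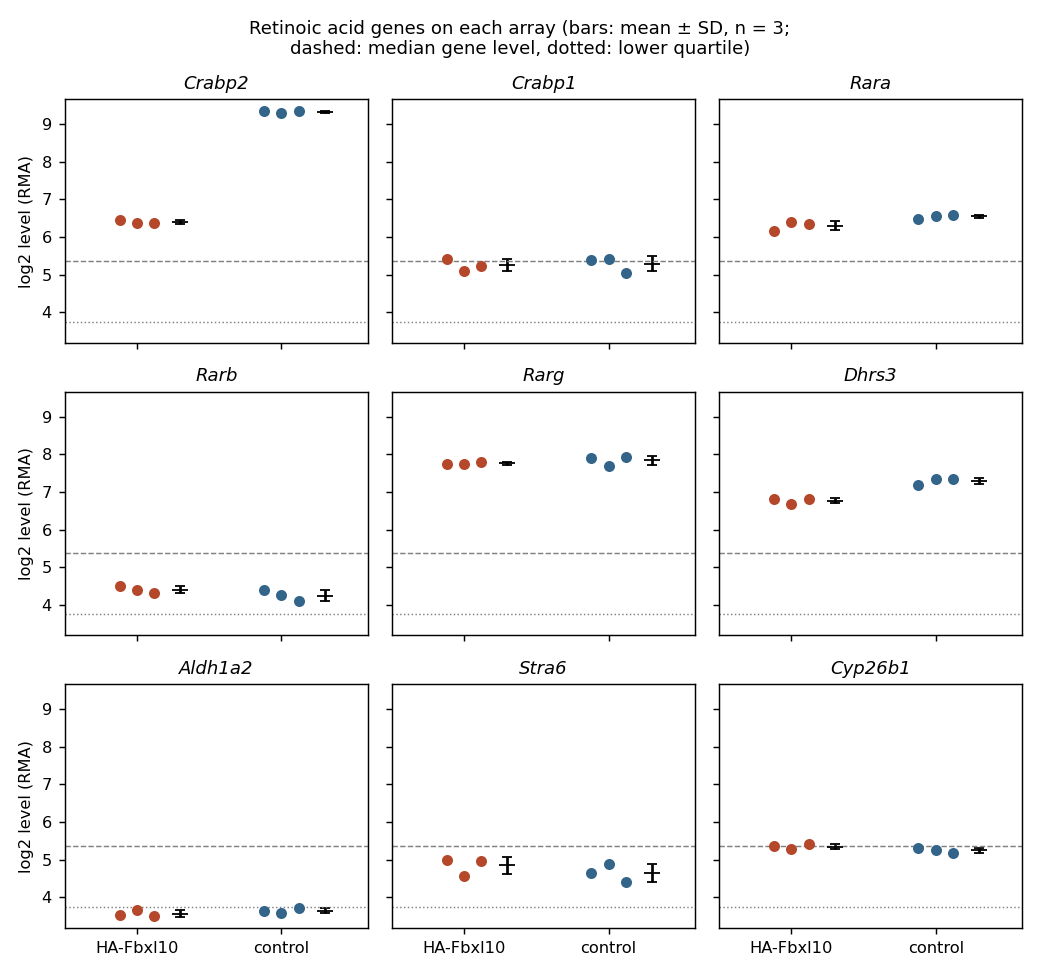
Log2 level of each gene on every array, with the 3 HA-Fbxl10 arrays on the left and the 3 control arrays on the right of each panel. Bars give the mean ± SD (n = 3), the dashed line is the median gene level (5.36) and the dotted line the lower quartile (3.75). Crabp2 and Dhrs3 show a clear gap between groups, Rara a narrow one, and the other 6 genes overlap.

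Crabp2, the carrier that hands retinoic acid to its receptors, had log2 levels of 6.46, 6.38 and 6.38 in HA-Fbxl10 samples, against 9.35, 9.30 and 9.35 in control samples. Every HA-Fbxl10 sample was thus far below every control sample, with a gap of 2.84 between the nearest samples of the groups. The means were 6.40 ± 0.05 in HA-Fbxl10 cells and 9.33 ± 0.03 in control cells (SD, n = 3 each), a difference of -2.93 ± 0.06 (SE), which is 7.60-fold. The 95% interval of the difference was -3.07 to -2.79. This was the 4th largest fall of all genes. The HA-Fbxl10 level of 6.40 remained above the median gene level, so the size of the fall does not rest on values at the low end of the scale. These are bulk samples, so fewer cells with the transcript and less of it per cell cannot be told apart.

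Crabp1, the closest relative of Crabp2 and a cytoplasmic binder of retinoic acid, did not show such a change. Its log2 levels were 5.43, 5.10 and 5.23 in HA-Fbxl10 samples, against 5.39, 5.43 and 5.05 in control samples. The groups overlapped over nearly their whole range, and the difference was -0.04 ± 0.12 (SE) with a 95% interval of -0.30 to 0.22. The sign of this small difference turned with the scaling, to 0.02 after quantile normalisation or subtraction of array medians. The gene lay just under the median gene level, where calls were rarer. Of genes at or below the median level 5.21% passed the threshold, against 37% of those above it.

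The 3 genes whose profiles over the 6 arrays lay nearest to that of Crabp2 were Akip1, Mt2 and Ccl5. Likeness was measured as the root mean square distance between mean-centred log2 profiles, which was 0.16 for Akip1, 0.17 for Mt2 and 0.24 for Ccl5. Akip1, an A-kinase interacting protein gene, averaged 4.10 ± 0.27 in HA-Fbxl10 cells and 7.16 ± 0.04 in control cells. The metallothionein gene Mt2 averaged 5.64 ± 0.10 in HA-Fbxl10 cells and 8.30 ± 0.09 in control cells. Ccl5, a chemokine gene, averaged 6.63 ± 0.09 in HA-Fbxl10 cells and 9.12 ± 0.14 in control cells (SD, n = 3 each). Over 2 groups of 3 arrays the measure places genes with falls of similar size near each other.

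Among the receptor genes, Rara came nearest to the threshold. Its log2 levels were 6.17, 6.39 and 6.35 in HA-Fbxl10 samples, against 6.49, 6.57 and 6.58 in control samples. The groups did not overlap, but the gap between their nearest samples was only 0.09, about the spread within the groups. The difference was -0.24 ± 0.08 (SE, 95% interval -0.41 to -0.07), a 1.18-fold lower mean in HA-Fbxl10 cells that did not pass the threshold.

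Rarg, the receptor gene prominent in skin and cartilage, had log2 levels of 7.74, 7.75 and 7.80 in HA-Fbxl10 samples, against 7.90, 7.69 and 7.92 in control samples. The HA-Fbxl10 samples all fell inside the control range, and the difference was -0.08 ± 0.08 (SE, 95% interval -0.25 to 0.10). Rarb is itself a classic target of retinoic acid in many cell types, through a response element close to its transcription start. Its log2 levels were 4.49, 4.38 and 4.32 in HA-Fbxl10 samples, against 4.39, 4.25 and 4.10 in control samples, all below the median gene level. The groups overlapped, and the difference was 0.15 ± 0.09 (SE, 95% interval -0.04 to 0.35). The intervals reach to 1.19-fold lower for Rarg and to 1.27-fold higher for Rarb, so neither gene is shown to be unchanged.

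The Rarb window is shown because it holds a direct repeat of receptor half-sites, the response element for which this gene is known. RefSeq promoter windows, 17 in all, were matched for 8 of the 9 genes, and the promoter of Crabp2 was not analysed here. The search covered the 250 bases before each start, on both strands, for half-sites repeated in the same direction with 1, 2 or 5 bases between them, each spacing counted on its own. A half-site was the consensus AGGTCA, the common variant of it spelled GGGTCA, or either of the forms found in the Rarb element, which are GGTTCA on its left side and, after the spacer, AGTTCA on its right side. The capitals mark the repeat with spacing 5, from base -53 to base -37 counted back from the start, in the window at chr14:16575477-16575726 on the minus strand (RefSeq, GRCm38.p6), printed in the direction of the gene.
Rarb: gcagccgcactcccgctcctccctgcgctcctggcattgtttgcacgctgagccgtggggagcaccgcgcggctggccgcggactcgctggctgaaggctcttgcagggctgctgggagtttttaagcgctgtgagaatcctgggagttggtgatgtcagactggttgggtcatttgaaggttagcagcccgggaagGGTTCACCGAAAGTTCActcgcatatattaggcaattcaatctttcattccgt
Since the half-site forms include those of this element, its match was given by the search itself. No other window of the 17 held a repeat of any of these spacings. A repeat with spacing 5 occurred in 29 of 32851 windows of all genes (0.0883%), one with spacing 2 in 0.174% and one with spacing 1 in 0.164%. A match of letters is a description of the window and does not show that a receptor binds there. In these arrays the levels of Rarb overlapped between the groups.

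Dhrs3, whose product turns retinaldehyde back into retinol and which retinoic acid induces in many cells, was the other gene of the set that fell. Its log2 levels were 6.82, 6.68 and 6.80 in HA-Fbxl10 samples, against 7.18, 7.33 and 7.35 in control samples. All HA-Fbxl10 samples lay below all control samples, with a gap of 0.37 between the nearest ones. The difference was -0.52 ± 0.07 (SE, 95% interval -0.69 to -0.36), a mean 1.44-fold lower in HA-Fbxl10 cells. It was -0.29 after removal of the running median of neighbouring genes.

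The first promoter windows of Dhrs3 and Crabp1 are shown side by side, as the CpG dinucleotides to which the CpG-binding domain of Kdm2b can bind are of interest in a gene that fell and in the relative of Crabp2 that did not pass the threshold. Capitals mark each CpG in the 250 bases before the start. The Dhrs3 window lies at chr4:144892577-144892826 and the Crabp1 window at chr9:54764498-54764747, both on the plus strand (RefSeq, GRCm38.p6).
Dhrs3: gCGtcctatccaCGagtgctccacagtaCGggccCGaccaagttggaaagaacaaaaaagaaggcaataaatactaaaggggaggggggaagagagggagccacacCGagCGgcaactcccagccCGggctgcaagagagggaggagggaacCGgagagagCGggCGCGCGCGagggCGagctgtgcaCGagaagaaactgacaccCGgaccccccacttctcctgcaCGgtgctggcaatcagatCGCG
Crabp1: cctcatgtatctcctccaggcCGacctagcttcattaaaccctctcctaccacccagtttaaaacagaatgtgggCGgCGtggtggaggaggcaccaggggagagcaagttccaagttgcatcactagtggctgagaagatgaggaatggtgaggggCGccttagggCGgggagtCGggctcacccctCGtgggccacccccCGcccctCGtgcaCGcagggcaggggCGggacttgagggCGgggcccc
This Dhrs3 window holds 19 CpGs, a count that 19.7% of all windows reach, and the single Crabp1 window holds 12, which 33.5% reach. The other Dhrs3 windows hold 8 and 7, fewer than that of Crabp1, so the order of the genes depends on the window. Over the 17 windows the counts ran from 2 in a Rara window to 40 in the Aldh1a2 window, with a median of 9 beside 6 over all windows.

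Aldh1a2, the main retinoic acid synthase of embryonic mesenchyme, lay below the lower quartile of gene levels in both groups. Its log2 levels were 3.54, 3.67 and 3.50 in HA-Fbxl10 samples, against 3.65, 3.58 and 3.72 in control samples. At this level the values do not tell signal from background, and the difference of -0.08 ± 0.07 (SE, 95% interval -0.24 to 0.08) has no clear meaning for the transcript.

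Stra6, the retinol uptake receptor gene, was the most variable of the 9 genes within groups, with SDs of 0.23 in HA-Fbxl10 cells and 0.25 in control cells. Its log2 levels were 5.002, 4.58 and 4.96 in HA-Fbxl10 samples, against 4.64, 4.89 and 4.40 in control samples. The groups overlapped, and the difference was 0.20 ± 0.14 (SE, 95% interval -0.12 to 0.52). Cyp26b1, which encodes a retinoic acid hydroxylase that clears the signal, had log2 levels of 5.35, 5.27 and 5.41 in HA-Fbxl10 samples, against 5.31, 5.25 and 5.17 in control samples. One HA-Fbxl10 sample lay inside the control range, and the difference was 0.10 ± 0.07 (SE, 95% interval -0.06 to 0.26).

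The expressed genes next to the members on the chromosomes were also counted. The counts below are to be set beside the 37% of all genes above the median level that passed the threshold in either direction. Of the 30 expressed genes nearest to Crabp2 on chromosome 3, 22 fell, 1 rose, and their median difference was -0.36 on the log2 scale. All 470 expressed genes of the chromosome except Crabp2, these 30 included, had a median of -0.23, so lower levels were not limited to this neighbourhood. The neighbours nearest in gene order were Isg20l2 (-0.38), a ribosome biogenesis nuclease gene, and Nes (-0.30), the gene of the intermediate filament protein nestin. Crabp2 differed from the median of its neighbours by -2.56 and was lower than every one of the 30, of which Naxe had the largest fall at -1.23. Removing the running median left a Crabp2 difference of -2.56. Since the genes were chosen after the large fall of Crabp2 was seen, its distance from its neighbours is a description only.

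Around Dhrs3 on chromosome 4, 11 of 30 expressed neighbours fell and 2 rose, with a median of -0.21, a count of calls near the share of all such genes. Dhrs3 differed from that median by -0.31. For Rara on chromosome 11 the neighbours' median was -0.12, with 9 lower and 3 higher, again near that share, and Rara differed from it by -0.12. Rarg on chromosome 15 had a median of -0.17 around it, and its own small difference turned to 0.07 once the running median was removed. Over all expressed genes of the chromosome except the member, neighbours included, the median was -0.08 for chromosome 4, -0.13 for chromosome 11 and -0.07 for chromosome 15.

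The dim members did not all follow their surroundings. Of the 30 expressed genes around Crabp1 on chromosome 9, 22 rose and 0 fell, with a median of 0.37, which lies above the 95% interval of Crabp1. Of the 30 around Cyp26b1 on chromosome 6, 20 fell and 0 rose, with a median of -0.32, below the interval of Cyp26b1. The neighbours' median was 0.16 around Aldh1a2, also above its interval. Stra6 and Rarb had neighbour medians of 0.25 and 0.19, inside their intervals. All of these 5 genes had mean levels below the median gene level, and their neighbours were chosen to lie above it, so this comparison also sets dim against brighter genes. A total of 3 of the 9 genes, Crabp1, Stra6 and Aldh1a2, lie on chromosome 9, which holds 5.84% of all genes. The median over all expressed genes of the chromosome was 0.22 for chromosome 9, -0.13 for chromosome 6 and 0.12 for chromosome 14, that of Rarb. The neighbour medians are thus partly those of whole chromosomes.

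**Figure D2:**
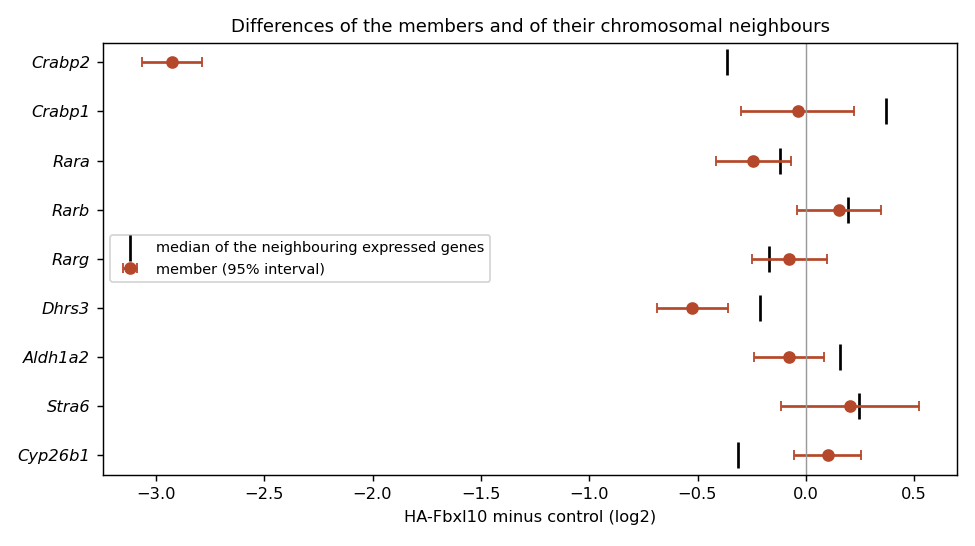
Difference between HA-Fbxl10 and control cells on the log2 scale for each gene (points, with 95% intervals) and the median difference of the expressed genes around it (black ticks, 30 genes each and 28 for Rarb). Crabp2 at -2.93 lies far from its neighbours' median of -0.36, while Rara, Rarb, Rarg and Stra6 have that median inside their intervals.

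**Figure D3:**
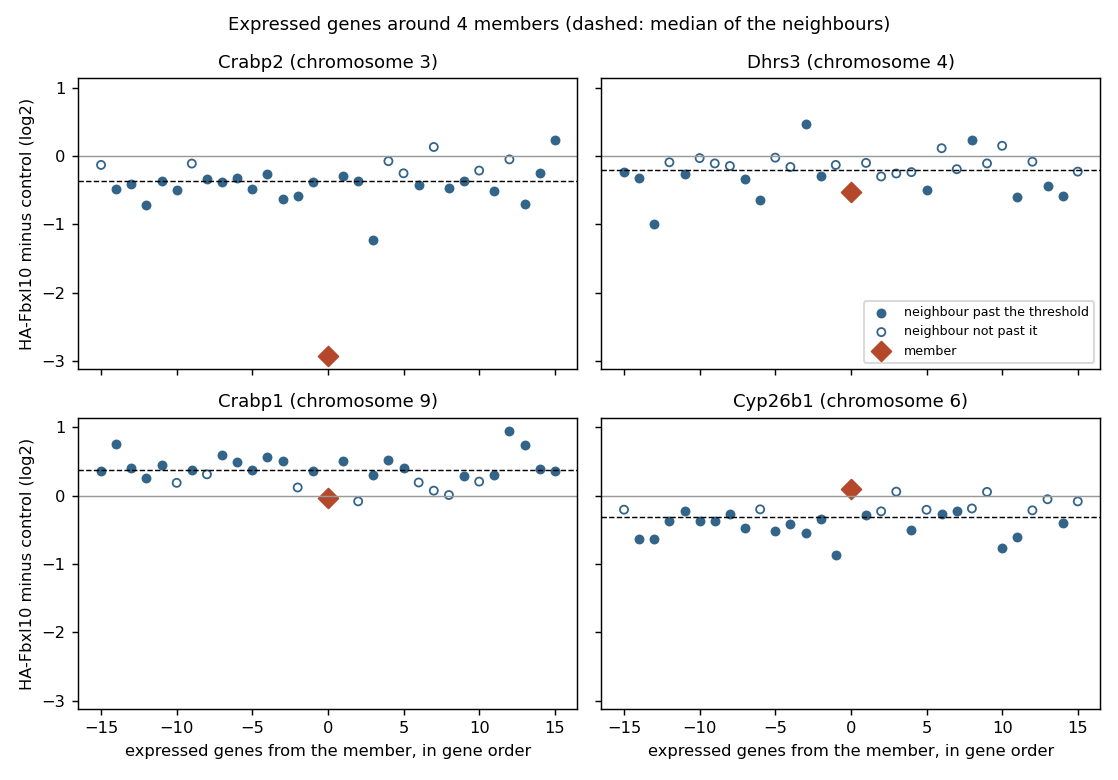
Log2 difference of the 15 expressed genes on each side of Crabp2, Dhrs3, Crabp1 and Cyp26b1, in gene order. Diamonds are the members, filled circles are neighbours past the threshold, open circles the others, and the dashed line is the neighbours' median (-0.36, -0.21, 0.37 and -0.32 in the order of the panels).

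The wider pathway was described with a list of 40 measured genes of retinoid transport, storage, oxidation, breakdown, RXR partners and co-regulators, none of them among the 9. Of these, 4 rose, 2 fell and 34 did not pass the test, beside 21.1% of all genes passing. The list's median difference was 0.01, beside -0.004 over all genes. Of its 19 genes above the median level 5 passed, beside 37% of all genes above that level.

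The genes of the list that passed encode oxidoreductases of retinol, retinaldehyde and related substrates. Many genes of the list are of this kind, so their presence among those that passed is no result about such enzymes. Others of them above the median level did not pass, among them Adh7 (0.07), Dhrs9 (0.11) and Rdh14 (0.15). Rdh10, the retinol dehydrogenase that acts before ALDH1A2, had log2 levels of 9.59, 9.49 and 9.73 in HA-Fbxl10 samples, against 9.12, 9.27 and 9.29 in control samples. It rose by 0.38 ± 0.08 (SE, limma adjusted p = 0.00903), with all HA-Fbxl10 samples above all control samples. Rdh11 rose by 0.25 ± 0.06 (limma adjusted p = 0.0196) and Rdh13 by 0.22 ± 0.06 (limma adjusted p = 0.0307), both reductase genes of the same short-chain family. Dhrs4, a retinaldehyde reductase gene, averaged 8.68 ± 0.06 in HA-Fbxl10 cells and 9.01 ± 0.03 in control cells (SD, n = 3 each) and fell by 0.33 ± 0.06 (SE, limma adjusted p = 0.00469). Adh5, a broadly expressed alcohol dehydrogenase gene best known for clearing formaldehyde, fell by 0.30 ± 0.06 (limma adjusted p = 0.00895). Aldh1a1, a retinaldehyde dehydrogenase gene, rose by 0.26 ± 0.07 (limma adjusted p = 0.032), at a mean level below the lower quartile of genes (3.83 ± 0.03 in HA-Fbxl10 cells and 3.56 ± 0.12 in control cells). As for Aldh1a2, signal and background cannot be separated at such a level.

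Several of these calls depended on the setting. The list had 8 genes past the threshold after quantile normalisation or with either variance trend. It had 7 after subtraction of array medians, with array weights or without the dimmest 30% of genes. The count of 6 fell to 3 without HA-Fbxl10 replicate 3 or without control replicate 2, and to 3 with the replicate number as a block, which ended the calls of Rdh11, Rdh13 and Aldh1a1. Rdh11 lost its call without HA-Fbxl10 replicate 2 or 3 or control replicate 1 or 2, with adjusted p of 0.0553 to 0.0701. Rdh13 lost it without any single array other than HA-Fbxl10 replicate 2, with adjusted p of 0.0606 to 0.101, and Aldh1a1 without any other than control replicate 3, with adjusted p of 0.0524 to 0.111. Dhrs4 kept its call under every alternative. Once the running median of neighbours was removed, Rdh10 stood at 0.25 (limma adjusted p = 0.0782), Rdh11 at 0.15 (limma adjusted p = 0.149) and Adh5 at -0.21 (limma adjusted p = 0.0536), and removing the chromosome median left Adh5, on chromosome 3 like Crabp2, at -0.07. That removal also ended the calls of Rdh11 (limma adjusted p = 0.0609) and Rdh13 (limma adjusted p = 0.0519).

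The RXR partner genes, named for their role, did not pass. Rxra, at 6.97 in HA-Fbxl10 cells and 7.15 in control cells, differed by -0.17 (95% interval -0.34 to 0.004). Rxrb, at 7.51 in HA-Fbxl10 cells and 7.68 in control cells, differed by -0.16 (95% interval -0.32 to -0.01, limma adjusted p = 0.125), and Rxrg lay below the lower quartile of gene levels. The other genes of retinoic acid breakdown, Cyp26a1 and Cyp26c1, differed by 0.10 and 0.07 at levels below the median gene level. Fabp5, the alternative carrier that hands retinoic acid to PPARδ, was bright and close to equal, at 9.22 in HA-Fbxl10 cells and 9.25 in control cells. Its difference was -0.03 with a 95% interval of -0.18 to 0.11. Fabp5 passed the threshold only once the running median of its neighbours was removed. That setting compares it with its neighbours, so near equality holds for its own levels and not relative to them.

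Genes known to respond to retinoic acid were described with a list of 22 measured genes, of which 2 rose, 2 fell and 18 did not pass the test. The list's median difference was -0.05. Of its 11 genes above the median level 4 passed, beside 37% of all genes above that level. Cyp26a1 and Nrip1 also stand in the pathway list. None of the 9 genes is in the target list, although Rarb (0.15) and Dhrs3 (-0.52) are themselves targets of retinoic acid in many cells. The counts of the list therefore leave out the falls of Crabp2 and Dhrs3.

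Gata6, an endoderm and heart transcription factor gene, had log2 levels of 5.55, 5.33 and 5.35 in HA-Fbxl10 samples, against 6.11, 6.45 and 6.04 in control samples. It fell by 0.79 ± 0.11 (SE, limma adjusted p = 0.00105). Tnfaip2, a gene that retinoic acid and tumour necrosis factor induce, averaged 5.92 ± 0.21 in HA-Fbxl10 cells and 6.62 ± 0.09 in control cells and fell by 0.69 ± 0.10 (limma adjusted p = 0.00133). In the other direction, the homeobox gene Meis2 averaged 7.02 ± 0.13 in HA-Fbxl10 cells and 6.40 ± 0.08 in control cells and rose by 0.62 ± 0.08 (limma adjusted p = 0.000653). Ets1, a transcription factor gene on chromosome 9, averaged 8.42 ± 0.05 in HA-Fbxl10 cells and 7.76 ± 0.09 in control cells (SD, n = 3 each). It rose by 0.66 ± 0.07 (SE, limma adjusted p = 0.000205), which became 0.27 (limma adjusted p = 0.0264) after removal of the running median of neighbours. The changed genes of the list thus went in both directions.

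CRABP proteins belong to the family of small intracellular lipid-binding proteins, and 12 other genes of it were measured. Of these 1 rose, 0 fell and 11 did not pass the test, and 11 of the 12 lay at or below the median gene level. The one that rose was Fabp4, the fatty acid carrier of fat cells. It had log2 levels of 5.21, 5.21 and 5.30 in HA-Fbxl10 samples, against 4.73, 4.61 and 4.55 in control samples, and rose by 0.61 ± 0.07 (SE, limma adjusted p = 0.00033). Like Crabp2 it lies on chromosome 3. The median difference of the 12 genes was -0.02. Of all genes at or below the median level, where Fabp4 lies, 5.21% passed.

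**Figure D4:**
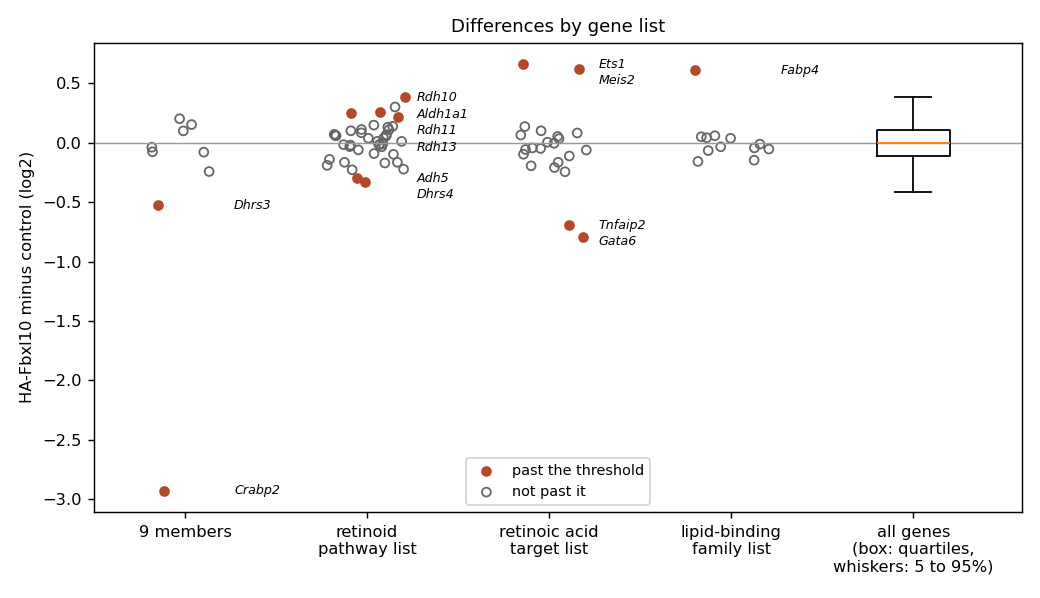
Difference between HA-Fbxl10 and control cells on the log2 scale for the 9 genes, the 40 genes of the pathway list, the 22 retinoic acid target genes and the 12 lipid-binding family genes, with the spread of all genes at the right. Filled points passed the threshold and are named. Crabp2 at -2.93 lies far below all other points shown, and the named list genes lie between -0.79 and 0.66.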

How the data were processed

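For 6 arrays the authors deposited log2 expression values of each probe set, for which the submitters' processing notes name RMA. Its version and settings and the genome build are not stated in the labels. RMA corrects the background, equalises the arrays' distributions and compresses low values.

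The platform annotation gives 1 gene for 21789 of the 35556 probe sets. Symbols were updated through Entrez identifiers or accessions to RefSeq (GRCm38.p6), which also gave chromosomes and gene order. Keeping the probe set with the highest mean left 19936 genes, with no filter on dim ones. limma 3.58.1 in R 4.3.3 compared the groups (two-sided, Benjamini-Hochberg over all genes, threshold 0.05). On data simulated for this comparison with 19936 genes and 200 changed ones, all above the median level, it recovered 77.6% of changes of 0.5 and 100% of changes of 1 and 2 on the log2 scale. It made 11 false calls among 196. The simulation drew the noise of each gene independently and changed far fewer genes than the 21.1% that passed in the data. These rates therefore need not hold for the real comparison.

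The members and the 3 gene lists were chosen with earlier results of these data known. From each list the text names the genes past the threshold (at most 8, those with the largest differences), and others only for their role. It also names Kdm2b and the 3 genes whose mean-centred profiles lay nearest to that of Crabp2. Neighbours are the 15 expressed genes on each side of a member, those above the median mean level, where the chromosome holds them. Alternatives were quantile normalisation, omission of the dimmest 30% of genes, subtraction of array medians, averaged probe sets, variance trends, array weights, a replicate block, an adjusted p of 0.01, omission of each array in turn, and removal of chromosome or running neighbour medians. Both removals shifted only genes above the median level. Crabp1, Rarb, Stra6, Cyp26b1, Aldh1a2, Fabp4 and Aldh1a1 lie below it, so their differences were left as they were. Promoters are RefSeq windows, GRCm38.p6.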

Additional observations from a re-analysis of the deposited data

How the results depend on the processing

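Crabp2, Dhrs3 and Kdm2b kept their direction and their call under every alternative run, with Crabp2 between -2.95 and -2.56 and Dhrs3 between -0.58 and -0.29 on the log2 scale. For Crabp2 and Dhrs3 this describes the contrast that led to the choice of the genes, and it gives no independent support. Rara lay on the other side of the threshold without the dimmest 30% of genes, with array weights or without HA-Fbxl10 replicate 2, and its difference ran from -0.29 to -0.11 over the alternatives. Crabp1 turned from -0.04 to 0.0171 after quantile normalisation and to 0.0171 after subtraction of array medians, and lay between -0.156 and 0.0383 without single arrays. Rarg turned to 0.0702 after removal of the running neighbour median. Of all genes, 2097 rose and 2111 fell. At an adjusted p of 0.01 these were 1227 and 1309, and 3 genes of the pathway list passed. Subtracting array medians gave 2650 higher and 1560 lower (62.9% higher, against 49.8%). With the replicate number as a block, 1667 genes rose, 1730 fell and 3 pathway genes passed. Deviations of same-numbered samples from their group means correlated with r of 0.085, -0.283 and -0.093. Those of different-numbered samples had r from -0.224 to 0.281, and not every sample correlated best with its own number. With 3 arrays in each group, these values cannot tell whether same-numbered samples share a culture or a batch. Without single arrays the pathway count ran from 3 to 6, the target count from 4 to 5, and the lipid-binding count was 1. The count of the 9 members past the threshold was 2 or 3. Removing the running neighbour median gave 2 lipid-binding genes, Fabp4 and Fabp5. Aldh1a2 and Aldh1a1 have no value without the dimmest 30% of genes. Levels under the lower quartile of genes limit what can be said of Aldh1a2.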

Other observations

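Some neighbours of the retinoid genes were among those with large differences. They were picked here after their values were seen. Naxe, which encodes an epimerase that repairs damaged NADH and NADPH and lies 3 expressed genes from Crabp2, averaged 8.59 in HA-Fbxl10 cells and 9.83 in control cells. It differed by -1.23 ± 0.07 (SE, limma adjusted p = 7.82e-06). Csad, a taurine synthesis gene near Rarg, differed by -1.08. Igfbp4, an IGF-binding protein gene near Rara, differed by -0.97, while the keratin gene Krt19, also near Rara, was 0.71 higher. Cgnl1, a cell junction protein gene near Aldh1a2, was 1.13 higher in HA-Fbxl10 cells.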
